A study of Arabidopsis thaliana with 6 samples.

Results

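Stomatal lineage regulators are the genes that set how many epidermal cells of a leaf become stomata, the pores through which carbon dioxide enters and water leaves. The 6 genes described here are SPCH, MUTE, FAMA, STOMAGEN, CRSP and AGL16, chosen by name and by 1 probe set each out of 22810 on the ATH1 array, a short-oligonucleotide array for Arabidopsis thaliana. The annotation of the array lists FAMA under the symbol FMA and CRSP under ATSBT5.2, and each of the 6 probe sets was paired with the locus of its gene: AT5G53210 for SPCH, AT3G06120 for MUTE, AT3G24140 for FAMA, AT4G12970 for STOMAGEN, AT1G20160 for CRSP and AT3G57230 for AGL16.

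RNA came from the middle of Col-0 rosettes, up to leaf 11, at growth stages 3.20 to 3.50, and the series title asks about the genetic basis of stomatal number when carbon dioxide is raised. All plants grew in compost treated with Intercept insecticide, at 21 degrees C and 50 to 60% humidity, with 10 h of light and 14 h of dark, after 3 days of stratification at 4 degrees C. The 6 groups were high, medium and low light, each in ambient and in high CO2, with 1 array per group, and neither light intensities nor CO2 concentrations are given in the sources used here. The title of the high-light high-CO2 array names high CO2 while its atmosphere entry reads normal, and the array was placed by its title. With 1 array per group, the spread behind each test is the departure of the 6 arrays from an additive model of CO2 and light, which leaves 2 residual degrees of freedom per probe set. Whether the arrays came from separate plantings is not stated (every title carries replicate 1), so the p-values rest on the spread among these arrays, which may be technical. That spread also takes in any real change of the CO2 difference from one light level to another, and is not a spread between replicates. Median signals lay between 40.7 and 43.2, and the number of arrays limits the precision.

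In the leaf epidermis, the basic helix-loop-helix factors SPCH, MUTE and FAMA act one after the other. SPCH starts the asymmetric divisions of the lineage, MUTE ends them and commits the cell to become a guard mother cell, and FAMA stops division and drives guard cell fate. Secreted peptides act on receptors at the cell surface: STOMAGEN, made in the mesophyll, promotes stomata, while peptides such as EPF2 repress them, and CRSP is a subtilisin-like protease that processes EPF2 and is linked to the control of stomatal number by CO2. AGL16 is a MADS-box factor, a target of the microRNA miR824, that affects the divisions of satellite meristemoids. More light is known to raise stomatal number in Arabidopsis, and high CO2 to lower it in Col-0.

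SPCH was higher in medium and high light than in low light at both CO2 levels. Its signal in ambient CO2 was 32.4 in low light, 70.1 in medium light and 67.7 in high light. In high CO2 its signal was 5.6 in low light, 52.6 in medium light and 47.4 in high light. Both low-light arrays therefore lay below the other 4, and the low-light high-CO2 array stood apart from the rest. In order of signal, the step from 32.4 down to 5.6, a log2 difference of 2.53, was the only step between neighbouring arrays larger than the SD of a difference between 2 arrays in the fit, 0.69, although its size is uncertain because 5.6 lies under the filter cutoff of 26.7. The neighbours above it, from 70.1 down to 32.4, did not differ beyond that spread from one to the next. Arrays sorted by signal have close neighbours by construction, so small steps do not show equal levels, here or for the genes below.

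The fitted difference of SPCH between high and low light was 4.21-fold (log2 2.07 ± 0.49, SE, limma adjusted p = 0.0387), and it was higher in high light at 2 of 2 CO2 levels, by 1.06 in ambient and 3.08 in high CO2 on the log2 scale. SPCH passed the expression filter, at a mean signal of 35.9 against the cutoff of 26.7, mainly through the medium-light and high-light arrays where it was high, and with no filter this call was lost (limma adjusted p = 0.101). Across the array 9.00% of the 13648 tested probe sets passed in this comparison, 4.18% of them as higher in high light. Between medium and low light the difference was 4.51-fold (log2 2.17 ± 0.49, limma adjusted p = 0.0498), against 4.54% of probe sets called in either direction and 2.37% called higher. With no filter this call was lost as well (limma adjusted p = 0.122). Between high and medium light SPCH gave a log2 difference of -0.10 ± 0.49 with a 95% interval from -1.22 to 1.02, and it did not pass (limma adjusted p = 0.948), where 0.953% of probe sets did. Only the comparisons with low light passed for SPCH, and the interval between medium and high light does not show that these levels were equal.

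The SPCH calls were narrow and rested on few arrays. The residual SD of SPCH alone was 0.85 on the log2 scale, and moderation by the trend over all probe sets brought it to 0.49. With its own residual SD and 2 degrees of freedom, the 95% interval of high minus low light ran from -1.56 to 5.71. Of 15 alternatives that tested SPCH in high against low light, 6 kept the call and 9 lost it. With the low-light high-CO2 array left out, the difference was 1.04 (limma adjusted p = 0.125). Leaving out the high-light high-CO2 array gave 1.59 (0.058). With the 25th percentile of signal, 12.7, added before the log as a pseudocount, the differences from low light shrank to 1.27 for high and 1.36 for medium light and kept their calls (0.0193 and 0.0273). High minus low light was 1.34 with the CO2 group taken from the atmosphere entry (0.192). Without the low-light ambient-CO2 array it was 3.11 and kept the call. For medium against low light, 5 of 16 alternatives kept the call and 11 lost it, and the difference ranged from 1.14 to 3.21 with 1 array left out. Left out in turn, the arrays whose absence ended this call were both medium-light arrays (0.0761 for ambient and 0.212 for high CO2) and the low-light high-CO2 array (0.137). The low-light high-CO2 signal lies under the cutoff of the expression filter, and every size computed from it is uncertain for that reason. 

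**Figure D1:**
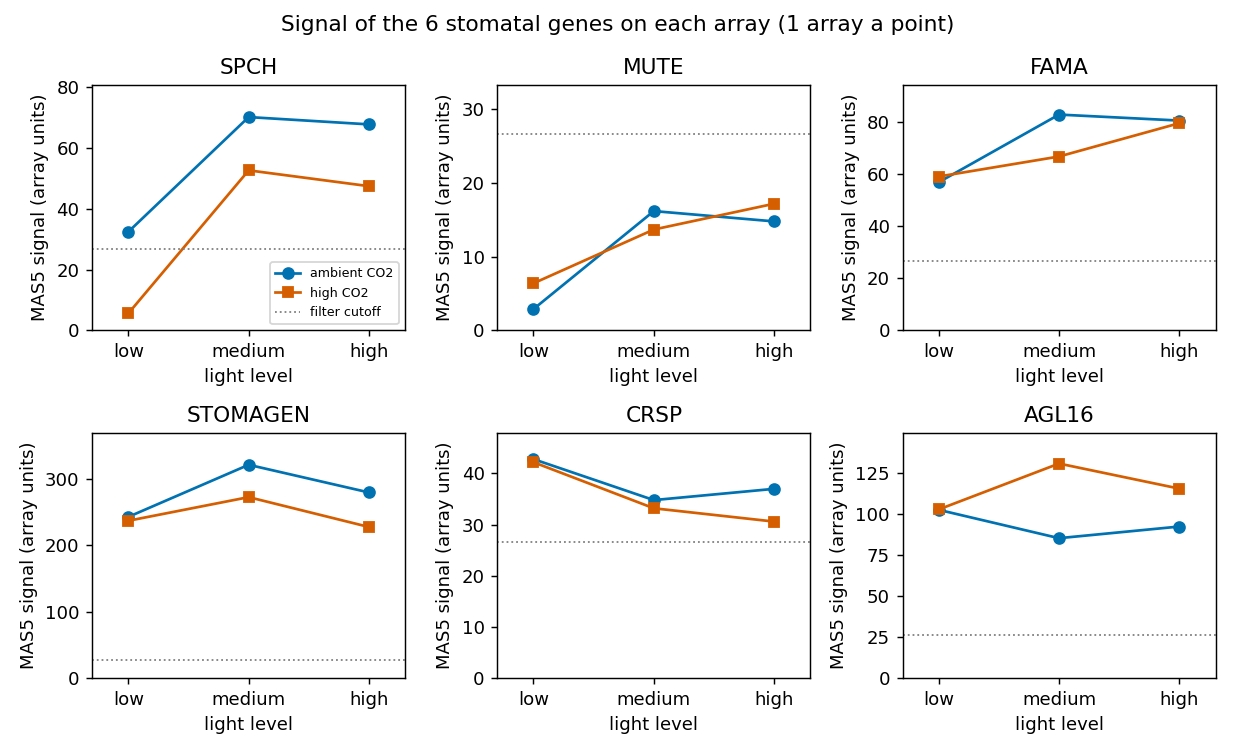
MAS5 signal (array units, linear axis from 0) of each gene against light level, with 1 array a point, circles for ambient CO2 and squares for high CO2; the dotted line is the filter cutoff of 26.7. SPCH, MUTE and FAMA are lowest on both low-light arrays, CRSP is highest there, and AGL16 is higher in high CO2 in medium and high light.

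MUTE was dim on every array and fell below the expression filter, so it was not among the tested probe sets. From low through medium to high light its signal ran 2.9, 16.2 and 14.8 at ambient CO2, and 6.4, 13.7 and 17.2 at high CO2. The 4 arrays of medium and high light lay within 13.7 to 17.2, and both low-light arrays lay below them. Each signal was above only 11.0 to 31.0% of the probe sets of its array, so the size of every MUTE difference given here is uncertain. With no filter the log2 difference was 1.89 ± 0.56 for high minus low light (limma adjusted p = 0.144) and 1.79 ± 0.56 for medium minus low light (0.200), and neither passed. With the pseudocount of 12.7 the same differences shrank to 0.73 and 0.68.

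FAMA moved over a narrow range. From low through medium to high light its signal ran 56.9, 82.9 and 80.6 at ambient CO2, and 59.1, 66.8 and 79.6 at high CO2. Both low-light arrays were again the lowest of the 6, but no step between neighbouring arrays exceeded the SD of a difference between 2 arrays, 0.26 on the log2 scale. That SD rests on the moderated residual SD, 0.18, which is larger than that of FAMA alone, 0.14. High minus low light gave log2 0.47 ± 0.18 with a 95% interval from 0.04 to 0.89, which did not pass over all probe sets (limma adjusted p = 0.161). With FAMA's own residual SD the interval ran from -0.12 to 1.06. Medium minus low light gave 0.36 ± 0.18 (0.297) and high minus medium light 0.11 ± 0.18 (0.828).

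The 3 lineage factors thus had 1 order in common, with both low-light arrays below the other 4. Among the 5 genes above the filter this held for SPCH and FAMA, and it held for 17.2% of all tested probe sets, so 2 of 5 is a description of these genes and carries no test. Over the 6 arrays, which share the array type and the scaling, the Pearson correlation of log2 signal was 0.89 between MUTE and FAMA, 0.70 between SPCH and FAMA and 0.53 between SPCH and MUTE. The values with MUTE rest on signals under the filter cutoff, and those with SPCH depend on its low-light high-CO2 signal, which is also under it. In whole rosette centres, fewer cells of the stomatal lineage and less RNA per cell cannot be told apart.

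Of 3 measured markers of dividing cells, 2 passed against low light on the same arrays and 1 did not. The list holds 6 such markers, of which these 3 had a probe set under the annotation, none of them at 0. Their summed signal was 265 to 314.7 in low light, 422.2 to 446.2 in medium light and 412.3 to 421 in high light. The mitotic Aurora kinase genes passed between high and low light, AUR1 with log2 0.91 ± 0.17 (limma adjusted p = 0.0174) and AUR2 with 1.14 ± 0.18 (0.0107). They also passed between medium and low light, at 0.86 ± 0.17 (0.0351) and 1.05 ± 0.18 (0.0272). The replication helicase gene MCM7 had 0.03 ± 0.14 and 0.25 ± 0.14 and did not pass. Its signal was 153.2 to 166.9 in low light and 161.9 to 163.8 in high light, so it adds little to the difference in the sum between these levels. Of all tested probe sets, 4.18% were called higher in high than in low light, and 2.37% higher in medium than in low light. The marker list was chosen with earlier results of these data known, so its calls are a description and not independent support. The part of dividing cells in the SPCH difference was not tested.

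**Figure D2:**
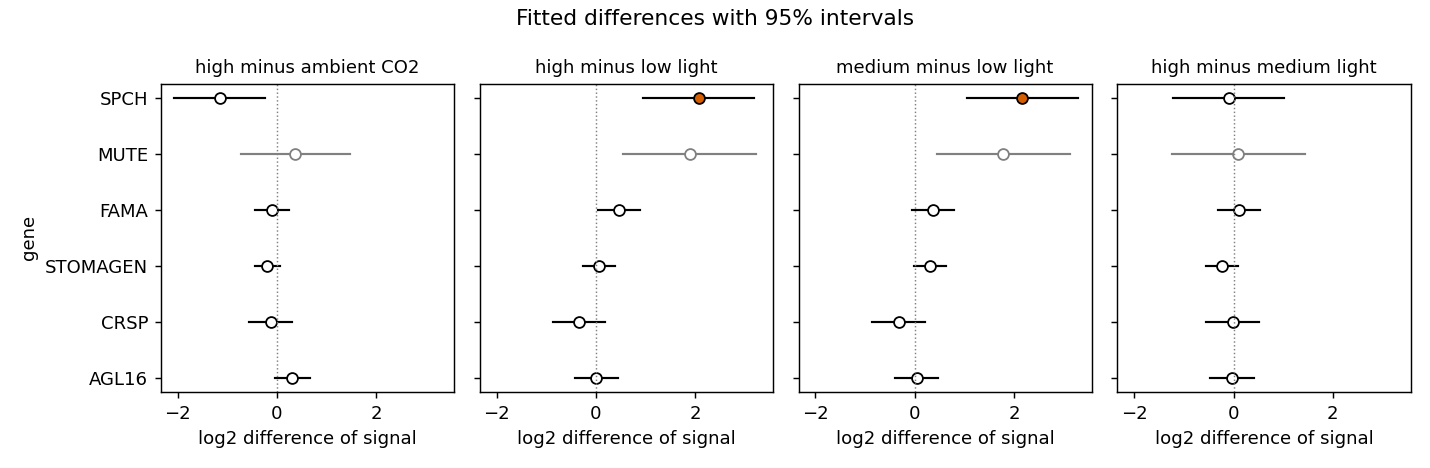
Fitted log2 difference of signal (point) with its 95% interval (bar) for each gene in 4 comparisons; filled points passed at an adjusted p under 0.05, and grey marks MUTE, fitted without the expression filter. SPCH passed in high and medium against low light, at 2.07 and 2.17, and no gene passed between CO2 levels or between high and medium light.

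From low through medium to high light the signal of STOMAGEN, the promoting peptide, ran 242.4, 320.7 and 279.1 at ambient CO2, and 236.6, 272.1 and 227.2 at high CO2. Medium light was highest at both CO2 levels, and the ambient and high-CO2 arrays overlapped. In order of signal, the step from 320.7 to 279.1, a log2 difference of 0.200, was slightly larger than the SD of a difference between 2 arrays, 0.195, and the other steps were not. That SD rests on the moderated residual SD, 0.14, which is larger than that of STOMAGEN alone, 0.097. The log2 difference was 0.30 ± 0.14 for medium minus low light (limma adjusted p = 0.25), 0.07 ± 0.14 for high minus low light (0.794) and -0.23 ± 0.14 for high minus medium light (0.452). The 95% interval of high minus low light, -0.25 to 0.39, does not reach a 2-fold change.

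CRSP, the protease, was the only gene of the 6 with both low-light arrays above the other 4, a pattern that 14.0% of tested probe sets had. At ambient CO2 its signal was 42.8 (low light), 34.8 (medium) and 37 (high), and at high CO2 it was 42.2, 33.2 and 30.6 in the same order. No step between neighbouring arrays exceeded the SD of a difference between 2 arrays, 0.32 on the log2 scale. That SD rests on the moderated residual SD, 0.23, which is larger than that of CRSP alone, 0.095, so the absence of a step depends on moderation. The log2 differences were -0.34 ± 0.23 for high minus low light (limma adjusted p = 0.417), -0.32 ± 0.23 for medium minus low light (0.462) and -0.01 ± 0.23 for high minus medium light (0.982), and none passed. Over the 6 arrays its log2 signal had a Pearson correlation of -0.86 with MUTE, -0.74 with FAMA and -0.62 with SPCH. All MUTE signals and the lowest SPCH signal behind these values lie under the filter cutoff.

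AGL16 showed no common direction with light. At ambient CO2 its signal was 102.7 (low light), 85.4 (medium) and 92.5 (high), and at high CO2 it was 102.9, 130.9 and 115.6 in the same order. Low light was thus the highest of the ambient arrays and the lowest of the high-CO2 arrays. The fitted log2 difference for high minus low light was 0.01 ± 0.19 (95% interval -0.43 to 0.44, limma adjusted p = 0.986), and it turned to -0.036 with quantile normalization and -0.047 with equal medians. Medium minus low light gave 0.04 ± 0.19 (0.928), or -0.0042 with equal medians, and high minus medium light -0.03 ± 0.19 (0.956).

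Between CO2 levels none of the 5 genes above the filter passed, where 0.0586% of probe sets did. SPCH had the largest difference of the 6, log2 -1.15 ± 0.40 (limma adjusted p = 0.463). At an unadjusted p under 0.05 the count was SPCH alone of the 5, beside 8.63% of all tested probe sets. It was lower in high CO2 at 3 of 3 light levels, by 2.53 in low, 0.41 in medium and 0.51 in high light on the log2 scale. The low-light value is taken against the signal of 5.6, under the filter cutoff, and its size is uncertain. In medium and high light the SPCH difference was larger in size than that of 80.4% and 86.4% of tested probe sets on the same 2 arrays. Most of those are brighter than SPCH, whose mean signal of 35.9 lies near the cutoff, and low signals are noisier on a log scale. With the pseudocount of 12.7 the fitted difference was -0.69 (limma adjusted p = 0.388). Without either low-light array the SPCH difference was -0.46.

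The other CO2 differences were small. STOMAGEN gave log2 -0.19 ± 0.11 (95% interval -0.45 to 0.07, limma adjusted p = 0.699), with -0.03, -0.24 and -0.30 in low, medium and high light. CRSP gave -0.12 ± 0.19 (-0.56 to 0.31, adjusted p = 0.907), with -0.02, -0.07 and -0.27. FAMA gave -0.09 ± 0.15 (-0.44 to 0.25, adjusted p = 0.913), with 0.05, -0.31 and -0.02. These intervals stop short of a 2-fold change, but they do not show that the levels were equal. SPCH, STOMAGEN and CRSP were lower in high CO2 at all 3 light levels, as were 13.8% of tested probe sets.

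AGL16 ran the other way, with a log2 difference of 0.31 ± 0.15 between high and ambient CO2 (95% interval -0.04 to 0.67, limma adjusted p = 0.624), and did not pass. The difference was 0.16 without either medium-light array and 0.47 without either low-light array. Its 3 high-CO2 arrays, at 102.9 to 130.9, lay above its 3 ambient arrays, at 85.4 to 102.7, as did those of 3.74% of tested probe sets. The 2 groups nearly met in low light, at 102.7 and 102.9, and the log2 differences were 0.003 in low, 0.62 in medium and 0.32 in high light. MUTE gave 0.37 ± 0.46 with no filter (limma adjusted p = 0.901), with 1.14, -0.24 and 0.22 at the 3 light levels. Leaving out 1 array moved this fit to between -0.013 and 0.68.

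**Figure D3:**
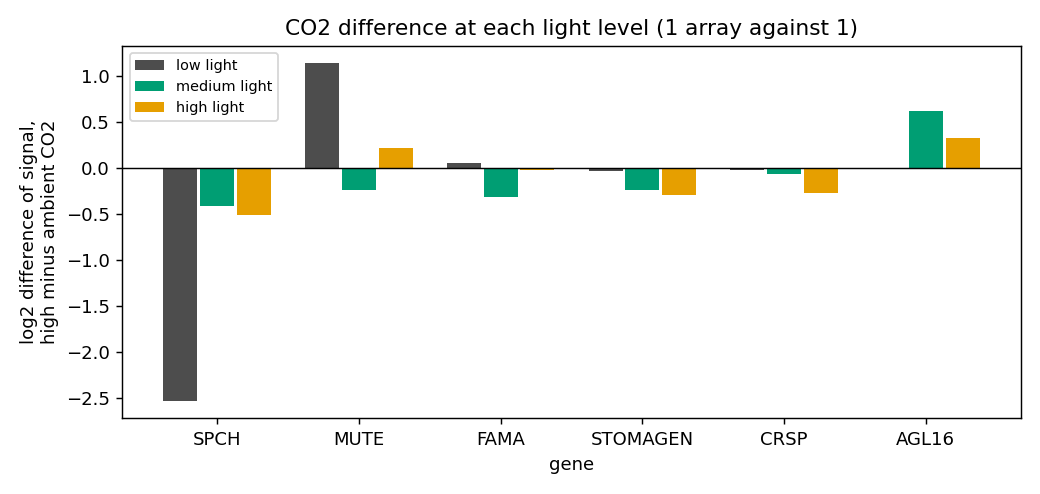
Log2 difference of signal, high minus ambient CO2, for each gene at each light level, from 1 array against 1 with no error bar. The bar of SPCH in low light, -2.53, is the longest, and the AGL16 bar in low light is 0.003 and cannot be seen.

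Whether the CO2 difference changes along the order of light was tested with a model of CO2, a light score and their product. No member passed, and no probe set on the array did (0%, or 1.66% at an unadjusted p under 0.05). SPCH had the largest product term of the 5 genes above the filter, a log2 change of 1.01 ± 0.62 per light step (limma adjusted p = 1). It turned to -0.68 when the low-light high-CO2 array was left out. The terms of AGL16, STOMAGEN, CRSP and FAMA lay between -0.13 and 0.16.

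The ratio of the highest to the lowest of the 6 signals was 1.46 for FAMA, 1.41 for STOMAGEN, 1.40 for CRSP and 1.53 for AGL16. Their log2 ranges were larger than those of 31.3 to 48.8% of tested probe sets. The lowest SPCH signal and all MUTE signals lay under the filter cutoff, so this ratio is not given for these 2 genes. The fold differences of SPCH against low light use that lowest signal and are uncertain for the same reason.

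Other genes of the stomatal pathway could not be set beside these 6. Of 40 further genes on the lists for lineage factors, peptides and receptors, the MAP kinase cascade and polarity, environmental control and the lineage's cell cycle, 0 were named by the probe annotation used here, so they were not analysed here. The lists of guard cell, epidermis and flower markers likewise had no gene to analyse. The mesophyll markers RCA, PRK and SBPASE had signals from 2036.2 to 4800.1 on the 6 arrays, their sum being 8761 to 9551.8 in low, 9946.9 to 10467.4 in medium and 7817.2 to 8488.1 in high light. Of these 3, none passed in any comparison, RCA at -0.11 ± 0.11, PRK at -0.28 ± 0.12 and SBPASE at -0.13 ± 0.12 for high minus low light on the log2 scale. CLV3 encodes the stem cell peptide of the shoot apex and was the only apex marker of 6 with a probe set under the annotation used here. Its signals ran from 1.4 to 8.6, under the cutoff on every array.

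Genes with the most similar pattern were taken from 7415 named probe sets by the Pearson correlation of log2 signal over the 6 arrays, as a description. SPCH was most like CHIL, a chalcone isomerase-like protein gene of flavonoid synthesis (r = 0.990), the glutathione transferase gene GSTU20 (0.985) and AT5G19440 (0.985). CHIL ran from 93.1 over 158.2 to 152.7 at ambient CO2 and from 37.6 over 133.3 to 105.2 at high CO2 as light rose, with its lowest signal on the array where SPCH was lowest. GSTU20 and AT5G19440 were also lowest there, at 467.5 and 186.1. These genes were picked for their likeness to SPCH, whose signal on that array, 5.6, lies under the filter cutoff and far from its other signals. A low signal there therefore follows largely from the choice.

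FAMA was most like Y14, an exon junction complex gene (r = 0.999), AT5G08630 (0.998) and AT1G73440 (0.990). STOMAGEN was most like AT5G48630 (0.984), AT5G39960 (0.980) and AT3G27270 (0.974). CRSP was most like the RNA-binding protein gene ATRBP45C (0.995), AT5G63700 (0.992) and AT4G29950 (0.989), and AGL16 was most like AT3G59710 (0.989), AT2G32170 (0.985) and AT5G57700 (0.965). Of 13647 probe sets compared, 79 reached r of 0.95 with SPCH (0.579%), 61 with CRSP (0.447%), 47 with FAMA (0.344%), 26 with STOMAGEN (0.191%) and 12 with AGL16 (0.0879%).

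**Figure D4:**
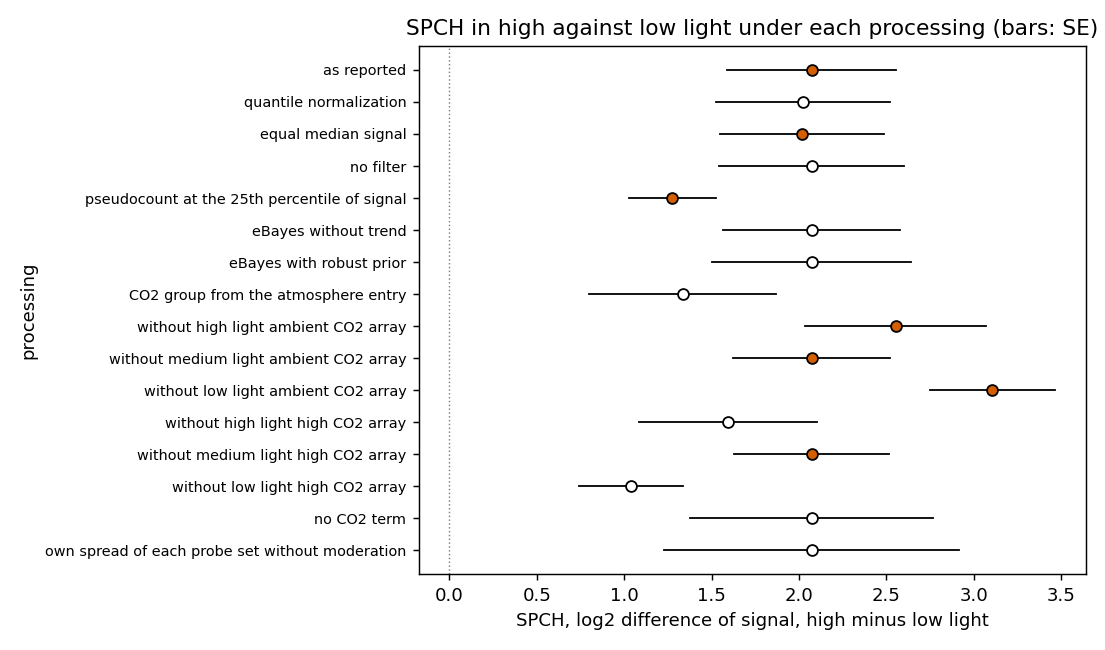
Fitted log2 difference of SPCH between high and low light (points, with bars of 1 SE) as reported and under each alternative that tested it; filled points passed at an adjusted p under 0.05. The difference stayed above 0 in all of them, from 1.04 to 3.11, and 9 of the 15 alternatives did not pass.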

How the data were processed

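Total RNA labelled with biotin was measured on 6 ATH1 arrays. The deposited values are linear signal intensity from MAS5, a summary of perfect-match and mismatch probes, per the submitters' processing notes, and its version is not stated. The 2% trimmed mean was 100 on every array. Low MAS5 signals are noisy on a log scale, and detection calls were not used here. Log2 was taken after a floor of 0.1. Without the 64 control probe sets, the top 60% of the other 22746 by mean log2 signal, 13648 in all, were tested with limma 3.58.1 in R 4.3.3 (lmFit, eBayes with an intensity trend, mean prior degrees of freedom 5.76). Tests used an additive model of CO2 and light, Benjamini-Hochberg adjustment over all tested probe sets and a threshold of 0.05. Fits were tested on simulated data. Python 3.11.15 drew the figures. Of 14016 annotated probe sets, 13513 had 1 gene and 503 several, and 13436 of the former matched the TAIR10.1 gene table.

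The members and lists were chosen with earlier results of these data known. The text names the 6 genes, list genes that passed or, failing that, up to 4 per list by smallest p, and the 3 most similar named probe sets per tested gene. The epidermis marker FDH was left out because the symbol belongs to another locus. Alternatives were other scalings, filters, pseudocount, variance priors and model terms, the atmosphere entry, and leaving out arrays. The use of each probe set's own spread was added after seeing the data.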

Additional observations from a re-analysis of the deposited data

Results flagged for a closer look

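Several differences of these genes had opposite signs in the groups compared, each from 1 array against 1 and none of them tested beyond the product of CO2 and light, which no gene passed. For MUTE, high minus ambient CO2 was 1.14 in low and -0.24 in medium light on the log2 scale, a change of -1.38, and 0.46 higher again in high light, at 0.22. High minus medium light for MUTE was -0.13 in ambient and 0.33 in high CO2, also a change of 0.46. For FAMA, high minus ambient CO2 was 0.05 in low, -0.31 in medium and -0.02 in high light, so that medium and high light differed from low light by -0.37 and -0.073. High minus medium light for FAMA was -0.04 in ambient and 0.25 in high CO2, a change of 0.29.

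For STOMAGEN, high minus low light was 0.20 in ambient and -0.06 in high CO2, a change of -0.26. For CRSP, high minus medium light was 0.09 in ambient and -0.12 in high CO2, a change of -0.21. AGL16 changed sign in each light comparison. Medium minus low light was -0.27 in ambient and 0.35 in high CO2 (a change of 0.61), high minus low light -0.15 and 0.17 (0.32), and high minus medium light 0.12 and -0.18 (-0.29). All MUTE signals behind these values were under the filter cutoff of 26.7.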

How the results depend on the processing

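With 1 array per group, a lone array is assumed to vary like the other groups in every fit that leaves 1 out, and dim signals limit SPCH and MUTE most. No paired analysis by replicate number was possible because all arrays carry number 1. The additive model itself compares CO2 levels within light levels and light levels within CO2 levels. No member passed for CO2, for high minus medium light or for the CO2 difference along light under any alternative. For high minus low light 1 member, SPCH, passed as reported. The count was 0 with quantile normalization (adjusted p = 0.0531), no filter (0.101), no intensity trend (0.0762), a robust prior (0.0948), the atmosphere entry (0.192), no CO2 term (0.127) and each probe set's own spread (0.423), and 0 to 1 with 1 array left out. For medium minus low light the count of 1 fell to 0 with the same settings (0.0634, 0.122, 0.1, 0.102, 0.0648, 0.139 and 0.441) and with equal medians (0.0503), and was 0 to 1 with 1 array left out. With the top 40% of probe sets both counts were 0 because SPCH is no longer tested. Except where named, the cause of these losses was not tested.

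Differences that changed sign were all uncalled. AGL16 gave -0.036 (quantile) and -0.047 (equal medians) for high minus low light, -0.0042 (equal medians) for medium minus low light and 0.12 (atmosphere entry) for high minus medium light, and STOMAGEN 0.21 (atmosphere entry) along light. With 1 array left out the ranges were -0.16 to 0.018 for FAMA and CO2, -0.044 to 0.19 for STOMAGEN and -0.22 to 0.24 for AGL16 in high minus low light, and -0.19 to 0.27 for AGL16 in medium minus low light. In high minus medium light they were -0.65 to 0.45 for SPCH, -0.059 to 0.27 for FAMA, -0.13 to 0.10 for CRSP and -0.26 to 0.19 for AGL16. Along light they were -0.68 to 2.70 for SPCH, -0.33 to 0.26 for FAMA, -0.43 to 0.17 for STOMAGEN, -0.32 to 0.067 for CRSP and -0.10 to 0.42 for AGL16. MUTE, fitted without the filter, ranged with 1 array left out from -0.013 to 0.68 for CO2, -0.36 to 0.56 in high minus medium light and -1.77 to 0.84 along light. Calls over the whole array, 8 for CO2, 1228, 619 and 130 for light and 0 along light, ranged over the alternatives other than own spreads from 0 to 153, 301 to 1636, 14 to 1683, 0 to 852 and 0 to 30, and each was 0 with own spreads.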
